A study of Mus musculus with 8 samples.

Results

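Transcripts for serine synthesis, threonine breakdown, one-carbon metabolism and the ATF4 amino acid response were followed across 8 gene arrays of R1 cells, an established line of mouse embryonic stem cells. The list held 32 genes chosen by symbol, and 31 of them had a probe set with a single gene symbol, out of 19935 genes measured. Tdh, which encodes threonine dehydrogenase, was not measured here. Each of the 31 genes was represented by 1 probe set.

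The culture was one for pluripotent cells, and RNA was taken at 48 hours from transfection of small interfering RNA (siRNA) in every group. The control group received a control siRNA (3 arrays), and the other groups received siRNA 1 (3 arrays) or siRNA 2 (2 arrays) against CnAb1, a splice variant of the calcineurin A beta subunit encoded by Ppp3cb. The sample titles carry the word differentiation, while the growth protocol states pluripotent culture. Nothing in the labels ties a replicate to a culture of its own, so p-values measure the spread between these arrays, which may be technical. In bulk RNA, fewer cells with a transcript and less of it per cell cannot be told apart. CnAb1 has been reported to drive serine and one-carbon metabolism in heart, and the question asked of these genes was whether their transcripts differ in stem cells when the variant is targeted.

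Serine is made from a glycolytic intermediate and gives a carbon unit to folate as it is turned into glycine. Folate enzymes in the cytosol and in mitochondria carry that unit to nucleotide synthesis, and mouse embryonic stem cells are known to draw on threonine and glycine cleavage as a further source. ATF4 is a transcription factor whose translation increases when amino acids run short or proteins misfold. It binds C/EBP-ATF response elements and induces enzymes of serine and asparagine synthesis, amino acid transporters and regulators of cell survival.

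The response elements that ATF4 binds are shown for the genes of the list that hold the core in the promoter window searched, so that the letters can be read beside their values. The core searched was TGATGNAA on both strands, from 250 bases before to 50 bases after the start site, in RefSeq promoters of build GRCm38.p6. It was present in 5 of 30 promoters of 27 listed genes (16.7%), and in 3.97% of all 32851 promoters. Aldh1l2, Tdh, Cth, Slc7a5 and Slc7a3 had no promoter entry. Stretches of 100 bases are printed 5′ to 3′ along the gene, with the core in capitals, and 30 bases for Trib3, where the core lay after the start. A match is a description of these letters and not of binding.
Asns, chr6:7693210-7693309, minus strand: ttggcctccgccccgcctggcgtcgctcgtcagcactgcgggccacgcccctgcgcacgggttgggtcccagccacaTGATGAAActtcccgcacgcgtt
Chac1, chr2:119351003-119351102, plus strand: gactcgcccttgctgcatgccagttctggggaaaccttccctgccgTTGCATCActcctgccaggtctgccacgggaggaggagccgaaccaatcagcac
Nupr1, chr7:126625527-126625626, minus strand: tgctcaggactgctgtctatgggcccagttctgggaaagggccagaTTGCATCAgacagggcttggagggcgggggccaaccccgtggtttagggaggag
Slc7a11, chr3:50443626-50443725, minus strand: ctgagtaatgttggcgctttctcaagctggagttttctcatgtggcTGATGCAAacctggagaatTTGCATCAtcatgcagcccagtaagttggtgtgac
Trib3, chr2:152344028-152344057, minus strand: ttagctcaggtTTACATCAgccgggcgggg
Asns carried the core 23 bases before its start, Nupr1 110 bases and Chac1 193 bases before theirs. Slc7a11 carried it in both orientations, 66 and 47 bases before its start.

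Values are log2 expression per probe set. They are compared for a probe set across arrays and not between probe sets. Array medians were 8.12 to 8.20 and lower quartiles 6.81 to 6.98. Pluripotency markers were bright on every array, as the mean over 10 of them (Pou5f1, Nanog and others) was 12.64 to 12.73. The mean over 9 fibroblast markers was 8.46 to 8.56 with control siRNA, 8.49 to 8.67 with siRNA 1 and 8.51 to 8.52 with siRNA 2. Of these 9, 6 were higher for the average of both siRNAs, 0 passed limma's adjusted test and 2 (Col1a1 and Col1a2) had an unadjusted p under 0.05. Over all genes 56.1% were higher, 0% passed and 6.31% had such a p. The mean over 6 macrophage and blood markers was 8.15 to 8.46, 8.23 to 8.64 and 8.29 to 8.37 in the same order, highest on siRNA 1 replicate 1. Of 4 hepatocyte markers Alb and Ttr read below the lower quartile of every array, and Apoa1 above it. Afp, at 6.79 to 7.12, lay below it on some arrays and above it on others. All 4 were higher with each siRNA, beside 58.6% of all genes with siRNA 1 and 52.9% with siRNA 2. Of the 4, 0 passed limma's adjusted test. Ttr had an unadjusted p under 0.05 for the average, as had 6.31% of all genes. The Ppp3cb probe set read 10.63 ± 0.07 (SD, n = 3), 10.76 ± 0.29 (n = 3) and 11.11 ± 0.07 (n = 2) in the 3 groups, so its mean was not lower with either siRNA. The siRNA 1 arrays read 10.52, 10.68 and 11.09. Its difference from control was 0.13 for siRNA 1 (SE 0.12) and 0.49 for siRNA 2 (SE 0.14). Limma's adjusted p was 0.88 and 0.794, so neither passed. The annotation of this probe set names the gene only, without a splice variant, so it does not check the knockdown.

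Serine, one-carbon and ATF4 transcripts in siRNA-treated cells lay close to control cells. For the average of both siRNAs, 17 of the 31 genes were higher and 14 lower (54.8% higher, beside 56.1% of all genes). Their median difference was 0.007 on the log2 scale, beside 0.011 over all genes. Differences ran from -0.14 for Psph, the last enzyme of serine synthesis, to 0.16 for Cebpb, a stress-induced transcription factor. In limma's moderated test with Benjamini-Hochberg adjustment 0 of 31 passed an adjusted p of 0.05, as did 0% of all genes, and adjusted p ran from 0.769 to 0.998 over the list. Psph and Cebpb had an unadjusted p under 0.05, and these 2 make 6.45% of the list beside 6.31% of all genes. That number was 0 without siRNA 2 replicate 2 (6.88% of all genes), 1 without control replicate 2 (2.22% of all genes) and 4 without siRNA 1 replicate 1 (12.9%, beside 18% of all genes). With array weights it was 6 (19.4%, beside 21.4% of all genes). In 0 of 31 genes did the 5 siRNA arrays lie wholly to a side of the 3 controls, beside 4.74% of all genes. The 95% interval of every one of the 31 differences lay within 1.25-fold, as did 90.7% of those of all genes, and the widest was that of Phgdh.

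**Figure D1:**
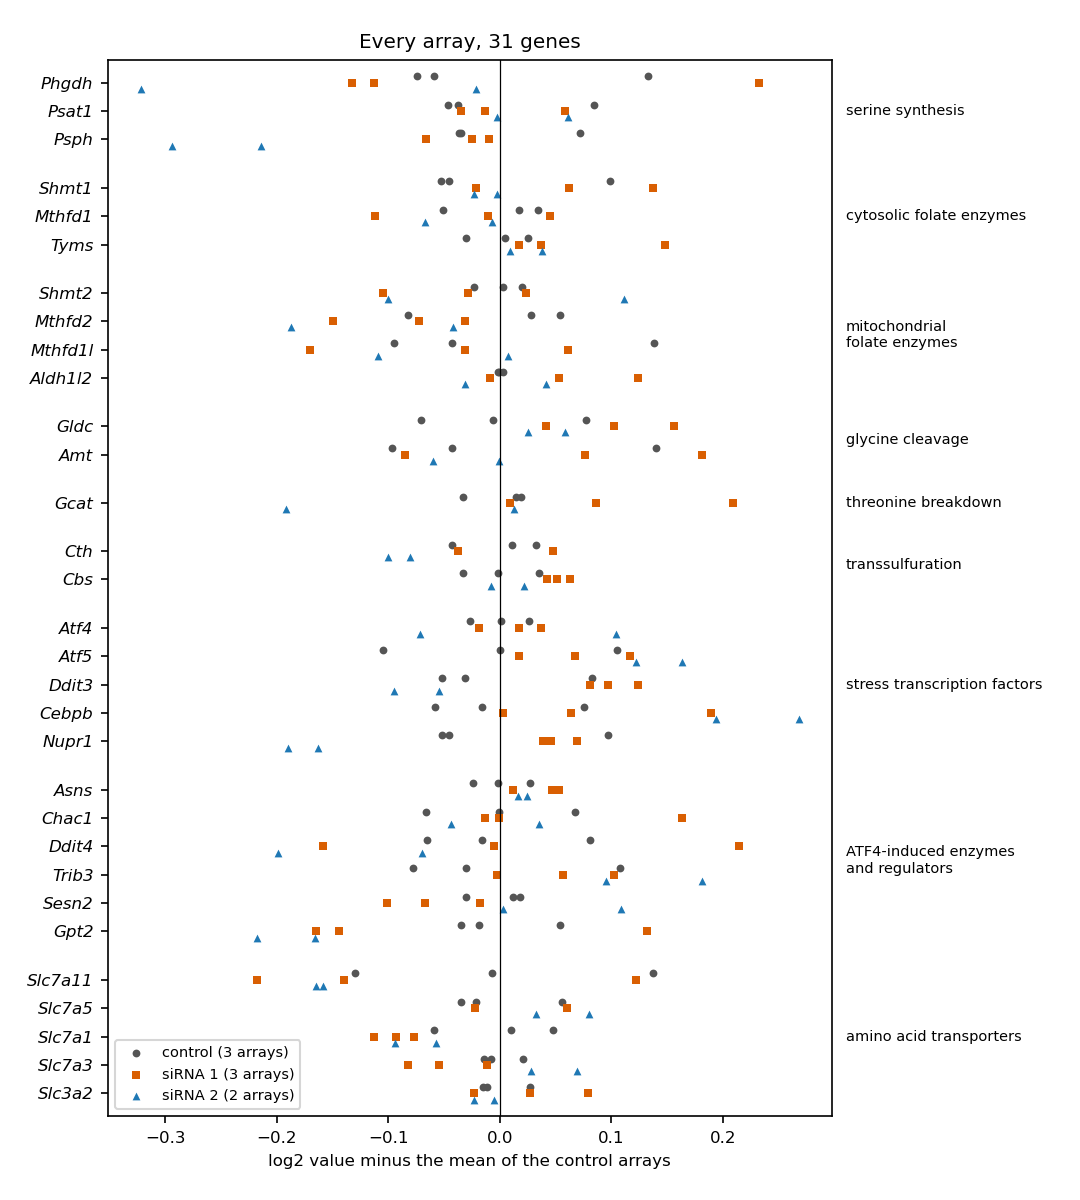
Log2 value on each array minus the mean of the 3 control arrays, for the 31 genes measured, grouped by role. Circles are control arrays, squares siRNA 1 and triangles siRNA 2. No gene has all 5 siRNA arrays on one side of its controls. The 2 triangles of Psph, Cth, Ddit3, Gpt2 and Nupr1 lie to the left of the other 6 arrays, by very little for Ddit3 and Gpt2. Those of Atf5, Slc7a3 and Cebpb lie to the right of the other 6, also by very little.

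Serine synthesis starts at Phgdh, the dehydrogenase that commits a glycolytic intermediate to the pathway. Phgdh (probe set 10500529) read 10.68, 10.47 and 10.48 on the control arrays, 10.43, 10.41 and 10.77 with siRNA 1, and 10.52 and 10.22 with siRNA 2. The highest and the lowest of these arrays both came from siRNA-treated cells, and every group overlapped the others. The difference was -0.09 for the average (SE 0.10), 0.00 for siRNA 1 and -0.17 for siRNA 2 (SE 0.13). Without siRNA 2 replicate 2 the siRNA 2 value was -0.021 and the average -0.013, and without replicate 1 they were -0.322 and -0.164. Without control replicate 1 the average was -0.021. Phgdh varied more between replicates than 95.1% of all genes, with an SD within groups of 0.177 beside a median of 0.085. Its siRNA 1 difference turned to 0.198 with array weights, which gave replicate 3 a weight of 3.56 and replicates 1 and 2 weights of 0.31 and 0.41. Without those 2 replicates it was 0.232.

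Psat1, the aminotransferase of the next step, differed least of these 3 genes, by 0.02 (SE 0.05), and its 8 values ran from 12.68 to 12.81. Psph (probe set 10534075), the phosphatase that releases serine, read 9.84, 9.73 and 9.73 in control cells, 9.74, 9.70 and 9.75 with siRNA 1, and 9.55 and 9.47 with siRNA 2. Both siRNA 2 arrays lay below all 6 others, and siRNA 1 overlapped the controls. The siRNA 2 difference was -0.25 (SE 0.06, 0.839-fold), the siRNA 1 difference was -0.03 (SE 0.05), and siRNA 2 lay 0.22 below siRNA 1 (SE 0.06). After adjustment in limma none was called, with an adjusted p of 0.708, 0.929 and 1 in that order. Psph ranked 61 of 19935 genes by p for siRNA 2. Over all alternatives its siRNA 2 difference stayed between -0.294 and -0.213, with adjusted p from 0.241 to 1.

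Cytosolic folate enzymes followed. Shmt1, which takes the carbon unit from serine in the cytosol, differed by 0.02 (SE 0.06) and Mthfd1, a folate enzyme with 3 activities, by -0.03 (SE 0.05). Tyms, thymidylate synthase, spends the carbon unit on DNA synthesis. Its probe set (10528915) read 11.71, 11.69 and 11.66 in control cells, 11.84, 11.73 and 11.71 with siRNA 1, and 11.70 and 11.73 with siRNA 2. The highest value was that of siRNA 1 replicate 1, and the groups overlapped. The average difference was 0.05 (SE 0.05, limma's adjusted p = 0.848).

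In mitochondria Shmt2 makes the same cleavage of serine. Shmt2 (10373202) read 12.15, 12.20 and 12.18 in control cells, 12.20, 12.07 and 12.15 with siRNA 1, and 12.08 and 12.29 with siRNA 2. The 2 siRNA 2 arrays lay on opposite sides of the controls, and their mean was 12.18, as was that of the controls. The siRNA 2 difference of 0.01 (SE 0.07) was -0.100 without replicate 2 of that group. Mthfd2, the mitochondrial dehydrogenase and cyclohydrolase of embryonic and tumour cells, read 11.53, 11.50 and 11.39 in control cells. It read 11.44, 11.32 and 11.40 with siRNA 1, and 11.43 and 11.28 with siRNA 2. Several siRNA arrays lay at the low end of the Mthfd2 controls or under it, and the average difference of -0.10 (SE 0.06, 95% interval -0.23 to 0.03) did not pass (limma's adjusted p = 0.774). Mthfd1l, which releases formate, differed by -0.05 (SE 0.07). Aldh1l2, which oxidises the folate-bound unit, differed by 0.03 (SE 0.05), and its 8 values ran from 7.69 to 7.84.

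The glycine cleavage system releases a carbon unit from glycine inside mitochondria, and Gldc encodes its decarboxylase. Gldc (10466976) read 12.22, 12.07 and 12.14 in control cells, 12.24, 12.18 and 12.30 with siRNA 1, and 12.17 and 12.20 with siRNA 2. The siRNA arrays lay in the upper range of the controls, with 2 siRNA 1 arrays above it, and the difference of 0.07 (SE 0.05) did not pass (limma's adjusted p = 0.805). Amt, the aminomethyltransferase of the same complex, differed by 0.01 (SE 0.07).

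Gcat, the ligase that splits the product of threonine dehydrogenase into glycine and acetyl-CoA, stood for threonine breakdown here. Gcat (10425211) read 10.27, 10.22 and 10.27 in control cells, 10.34, 10.26 and 10.46 with siRNA 1, and 10.27 and 10.06 with siRNA 2. The siRNAs lay on different sides of control, at 0.10 (SE 0.07) and -0.09 (SE 0.08). Between them the difference was -0.19 (SE 0.08), and limma's adjusted p was 1. That separation rested largely on siRNA 1 replicate 3 and siRNA 2 replicate 2, as the other siRNA arrays read 10.26 to 10.34.

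Transsulfuration carries the sulfur of homocysteine to cysteine through Cbs and then Cth. Cth (10503023) read 10.83, 10.85 and 10.78 in control cells, 10.87, 10.78 and 10.78 with siRNA 1, and 10.74 and 10.72 with siRNA 2. Both siRNA 2 arrays were the lowest of the 8, by a difference of -0.09 from control (SE 0.06) that did not pass (limma's adjusted p = 0.853). Cbs differed by 0.03 (SE 0.04) for the average, and its 3 siRNA 1 arrays, at 9.61 to 9.63, lay just above the controls at 9.54 to 9.61.

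**Figure D2:**
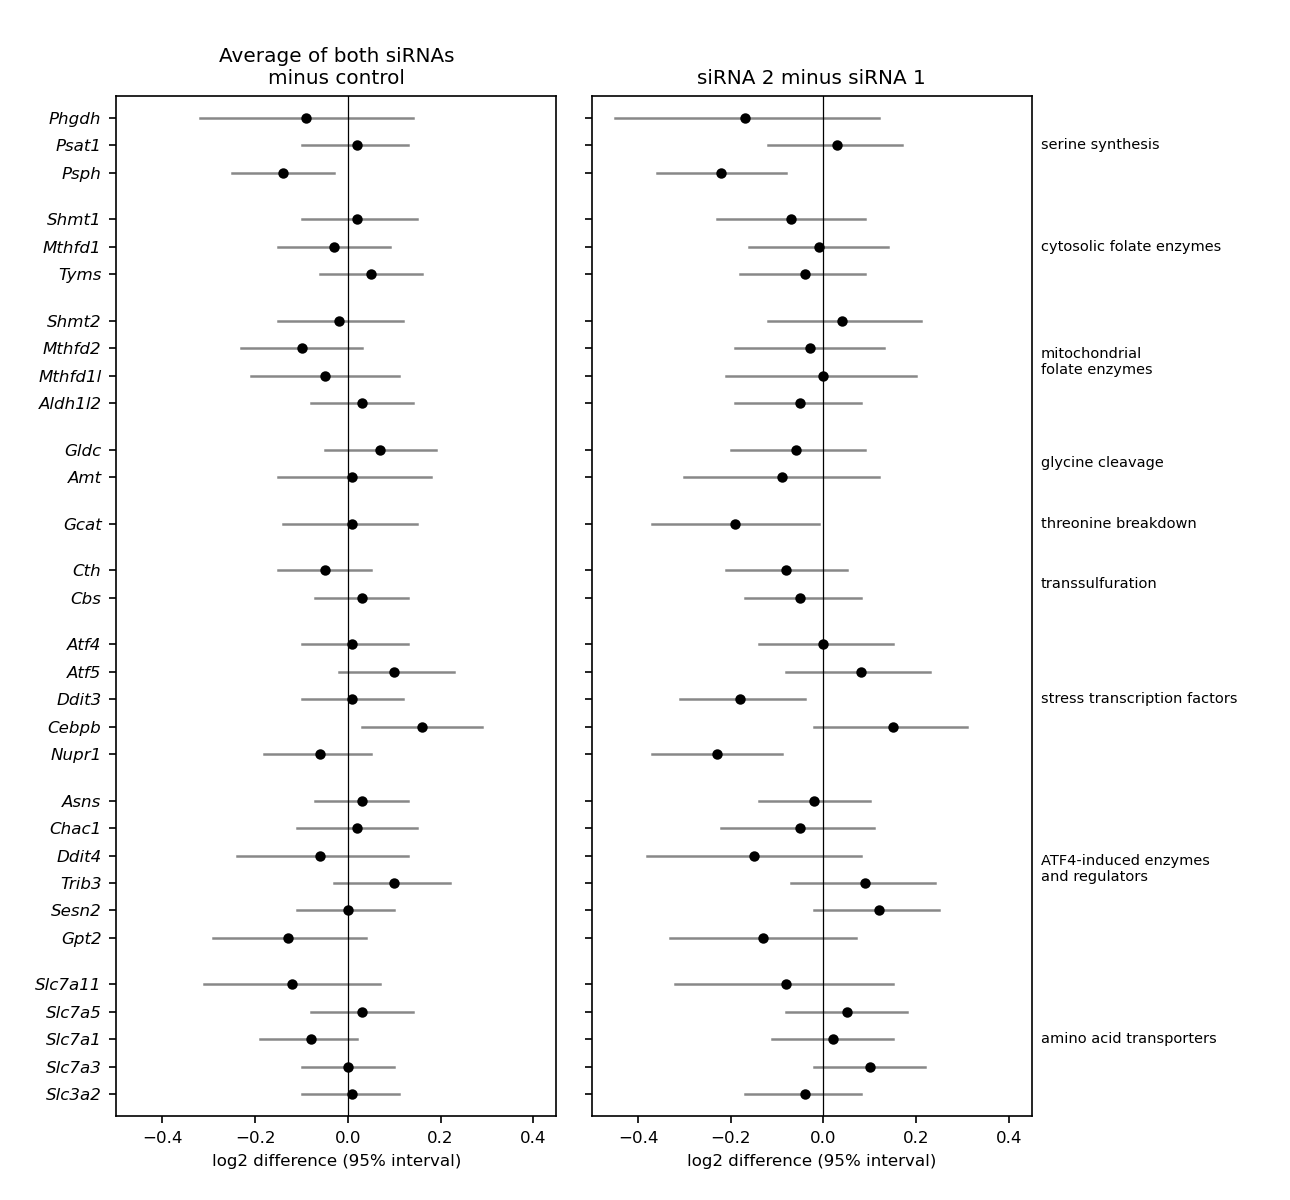
Log2 difference with its 95% interval from limma for each of the 31 genes. The left panel gives the average of both siRNAs minus control, where the intervals of Psph and Cebpb leave out 0 and the others include it, and the right panel siRNA 2 minus siRNA 1, where those of Psph, Gcat, Ddit3 and Nupr1 leave it out. None of them passed after adjustment over all genes.

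Atf4 itself read 9.32, 9.30 and 9.35 in control cells, 9.30, 9.36 and 9.34 with siRNA 1, and 9.25 and 9.43 with siRNA 2 (probe set 10425364). The siRNA 2 arrays enclosed all the others, and both siRNA means were 9.34 beside 9.32 in control. The average difference was 0.01 (SE 0.05, 95% interval -0.10 to 0.13). ATF4 is controlled mainly at translation, so its transcript does not measure its activity. Atf5, a related factor that is also controlled by translation, differed by 0.10 (SE 0.06), and its siRNA 2 arrays lay above every control.

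Cebpb, a C/EBP factor that pairs with ATF4 at its elements, gave the largest difference of the list for the average of both siRNAs. Its probe set (10478890) read 8.50, 8.46 and 8.59 in control cells, 8.58, 8.52 and 8.71 with siRNA 1, and 8.71 and 8.78 with siRNA 2. Both siRNA 2 arrays and siRNA 1 replicate 3 lay above the controls, and siRNA 1 replicates 1 and 2 lay among them. The siRNA 2 difference was 0.23 (SE 0.07, 1.17-fold), the siRNA 1 difference 0.09 (SE 0.06) and the average 0.16 (SE 0.06). Limma's adjusted p was 0.8, 0.87 and 0.769, so none passed. The average difference ranged from 0.129 to 0.210 over all alternatives, with adjusted p from 0.11 to 1.

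Ddit3 and Nupr1, a pro-apoptotic factor and a stress cofactor, parted by siRNA. Ddit3 (10366881) read 8.95, 8.97 and 9.08 in control cells, 9.12, 9.08 and 9.10 with siRNA 1, and 8.95 and 8.90 with siRNA 2. Nupr1 (10567995) read 9.19, 9.04 and 9.05 in control cells, 9.16, 9.13 and 9.14 with siRNA 1, and 8.90 and 8.93 with siRNA 2. In both genes the siRNA 2 arrays lay below all 3 siRNA 1 arrays, and both also lay below every control, by a margin for Ddit3 that is lost in rounding. The siRNA 2 minus siRNA 1 difference was -0.18 for Ddit3 (SE 0.06) and -0.23 for Nupr1 (SE 0.06), with an adjusted p of 1 for both in limma. Against control, siRNA 2 differed by -0.18 for Nupr1 (SE 0.06, limma's adjusted p = 0.812) and by -0.07 for Ddit3 (SE 0.06).

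**Figure D3:**
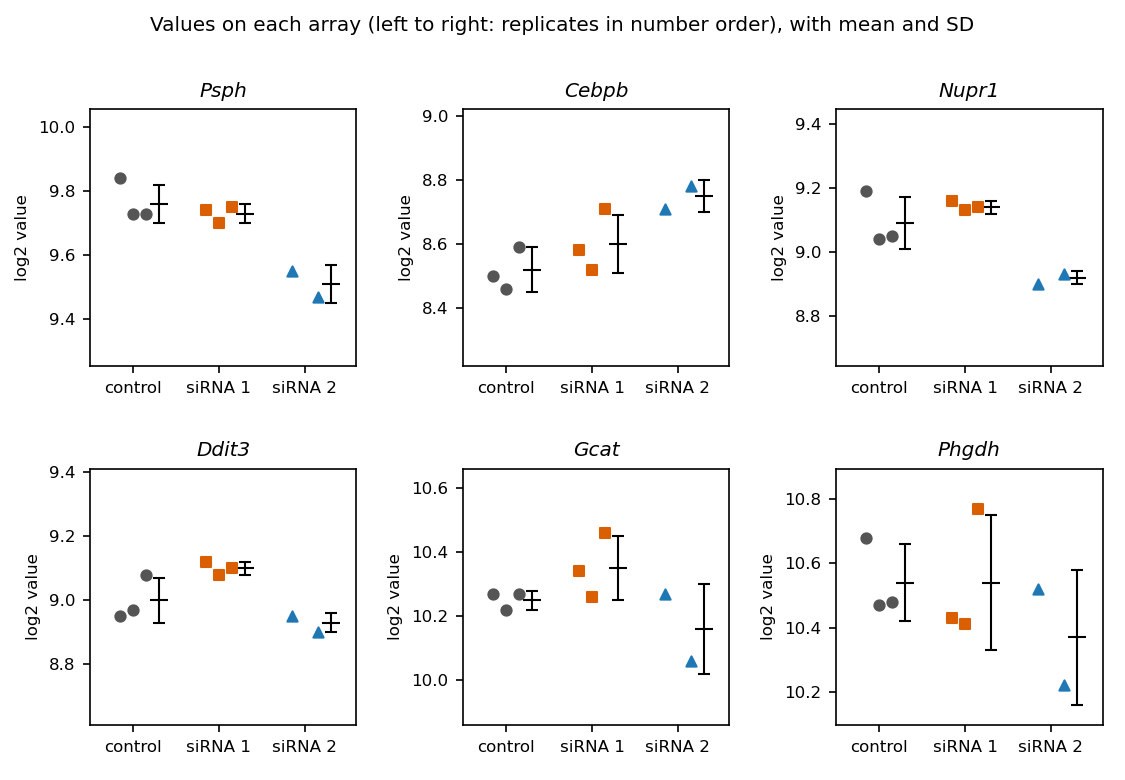
Log2 values of 6 genes on each of the 8 arrays, by group, with the mean and SD of each group beside the points. Each panel spans the same log2 distance. For Psph and Nupr1 the 2 siRNA 2 arrays lie below the other 6, and for Ddit3 they do so by a margin lost in rounding. For Cebpb they lie at the top together with siRNA 1 replicate 3 (8.71), and for Phgdh the replicates of each group are spread widely.

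Enzymes and regulators that ATF4 induces were 6 in number, 3 higher and 3 lower for the average. Asns, asparagine synthetase, read 13.35, 13.30 and 13.32 in control cells, 13.33, 13.37 and 13.37 with siRNA 1, and 13.35 and 13.34 with siRNA 2 (probe set 10543067). Its 8 values spanned 0.08 and its SD within groups of 0.021 exceeded that of only 1.06% of genes. Trib3, a pseudokinase that restrains the response, read 8.91, 8.77 and 8.72 in control cells, 8.86, 8.80 and 8.90 with siRNA 1, and 8.90 and 8.98 with siRNA 2. For Trib3 siRNA 2 replicate 2 lay above the control range and replicate 1 within it, and the siRNA 2 difference of 0.14 (SE 0.07) did not pass (limma's adjusted p = 0.818). The average difference was 0.10 (SE 0.06).

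Gpt2, a mitochondrial alanine aminotransferase, had the smallest p for the average among these enzymes and regulators. Gpt2 (10573626) read 10.09, 10.02 and 10.00 in control cells, 10.17, 9.89 and 9.87 with siRNA 1, and 9.82 and 9.87 with siRNA 2. All siRNA arrays but siRNA 1 replicate 1 lay below every control, and that array lay above them. The average difference was -0.13 (SE 0.07, limma's adjusted p = 0.774). Chac1, which degrades glutathione, differed by 0.02 (SE 0.06), Sesn2, an inhibitor of mTORC1, by 0.00 (SE 0.05), and Ddit4, also an inhibitor of mTORC1, by -0.06 (SE 0.08). Ddit4 ranged over 0.41 between arrays, from 10.87 on siRNA 2 replicate 2 to 11.28 on siRNA 1 replicate 3, the same arrays on which Phgdh and Gcat were lowest and highest.

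Of 5 amino acid transporters 2 were higher and 3 lower for the average. Slc7a1, a carrier of arginine and lysine, read 10.57, 10.47 and 10.53 in control cells, 10.43, 10.41 and 10.45 with siRNA 1, and 10.43 and 10.47 with siRNA 2 (probe set 10535852). The siRNA 1 arrays lay below all controls, and siRNA 2 reached the lowest control. The average difference was -0.08 (SE 0.05, limma's adjusted p = 0.773). Slc7a3, a second carrier of the same kind, differed by 0.00 (SE 0.04). Slc7a5, the light chain of a leucine exchanger, differed by 0.03 (SE 0.05) and Slc3a2, its heavy chain, by 0.01 (SE 0.05). Slc7a11, the cystine carrier, differed by -0.12 (SE 0.09) and by -0.16 with siRNA 2 (SE 0.11), where both arrays lay below every control. So did siRNA 1 replicates 2 and 3, at 6.97 and 7.04 beside a lowest control of 7.05, while siRNA 1 replicate 1 read 7.31. The SD of Slc7a11 within groups, 0.141, exceeded that of 86% of genes. Its values of 6.97 to 7.32 were close to the lower quartiles of the arrays, and no detection call was used here.

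The 5 genes whose promoters are printed above gave no common direction. Asns, Chac1 and Trib3 differed by 0.03, 0.02 and 0.10 for the average, and Nupr1 and Slc7a11 by -0.06 and -0.12. None of these passed the threshold.

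Each siRNA was also set against control alone. With siRNA 1 alone the median over the 31 genes was 0.017 (0.016 over all genes), 19 were higher and 12 lower (61.3% higher, beside 58.6% of all genes), and limma's adjusted test passed 0 of them, as it did 0% of all genes. At an unadjusted p under 0.05 the count was 0, beside 5.33% of all genes. It was 12 of 31 with array weights, where all genes gave 29%, and 4 of 31 without siRNA 1 replicates 1 and 2, where all genes gave 12.3%. Array weights passed 1436 genes (7.2% of all) after adjustment for siRNA 1 but 0 of the 31. Cbs lay above and Slc7a1 below every control on all 3 arrays, so 2 of 31 genes (6.45%) did not overlap, beside 10.8% of all genes.

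With siRNA 2 the median was -0.013 (0.006 over all genes), 14 were higher and 17 lower (45.2% higher, beside 52.9% of all genes), and 0 passed after adjustment, as did 0% of all genes in limma. Psph, Cebpb and Nupr1 had an unadjusted p under 0.05, 3 of 31 (9.68%) beside 6.07% of all genes, and 1 did without siRNA 2 replicate 2, beside 4.81%. With repeated quantile normalization 6 did (19.4%, beside 7.83% of all genes), as did 6 with array weights (beside 9.73%). In 10 genes both siRNA 2 arrays were outside the control range, 3 above (9.68%, beside 13.4% of all genes) and 7 below (22.6%, beside 15.9%). Together that is 32.3% of the list beside 29.4% of all genes, a share near the background for so few arrays. The 95% interval lay within 1.25-fold for 25 of the 31 genes (80.6%, beside 79% of all genes) and within 1.37-fold for all.

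Both comparisons use the same control arrays, so the siRNAs were also set against each other. The median of siRNA 2 minus siRNA 1 was -0.044 over the list and -0.011 over all genes, with 10 genes higher and 21 lower (32.3% higher, beside 44.5% of all genes). Of the 15 serine and one-carbon genes 13 were lower with siRNA 2, with a median of -0.051, while 8 of the 16 ATF4 and amino acid response genes were lower, with a median of -0.007. On the single array siRNA 1 replicate 3, 8 of those 15 genes and 4 of those 16 had their highest value, beside 11.8% of all genes. Without siRNA 1 replicate 3 the median over the list was -0.017. Limma passed 0 of 31 after adjustment, as it did 0% of all genes. Psph, Gcat, Ddit3 and Nupr1 had an unadjusted p under 0.05, all lower with siRNA 2, which is 12.9% of the list beside 4.48% of all genes in either direction and 3.02% lower. That count ran from 2 without siRNA 2 replicate 2 (6.45%, beside 2.11% of all genes) to 6 (19.4%) under each of array weights, quantile normalization and trend and robust moderation, beside 10.5%, 6.87% and 5.18% of all genes. The groups did not overlap for 10 genes (32.3%), beside 15.4% of all genes, of which 4 were higher (Atf5, Sesn2, Slc7a3 and Cebpb, 12.9% beside 5.54%) and 6 lower (Psph, Cth, Cbs, Ddit3, Gpt2 and Nupr1, 19.4% beside 9.89%).

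Single arrays held an uneven share of the highest and lowest values of these genes. On siRNA 1 replicate 3, 12 of the 31 genes had their highest value (38.7%), beside 11.8% of all genes, and 0 had their lowest. They were Phgdh, Shmt1, Mthfd1, Aldh1l2, Gldc, Amt, Gcat, Cbs, Asns, Chac1, Ddit4 and Slc3a2. Of these, 8 belong to serine and one-carbon metabolism, as do 15 of the 31 genes. Control replicate 1 held the highest value of 6 genes and the lowest of 0, beside 13.2% and 6.27% of all genes. Replicate 2 of siRNA 2 held the highest of 8 and the lowest of 8, beside 14.1% and 12.8%. On siRNA 1 replicate 2, 0 were highest and 7 lowest (22.6%), beside 23.5% and 18.4% of all genes. The median deviation of the list from its own means was 0.057 on siRNA 1 replicate 3, 0.044 on control replicate 1 and -0.038 on siRNA 1 replicate 2, and that of all genes was 0.014, 0.016 and 0.005. The lower quartile of these arrays was 6.89, 6.88 and 6.98, and its part in the pattern was not tested.

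**Figure D4:**
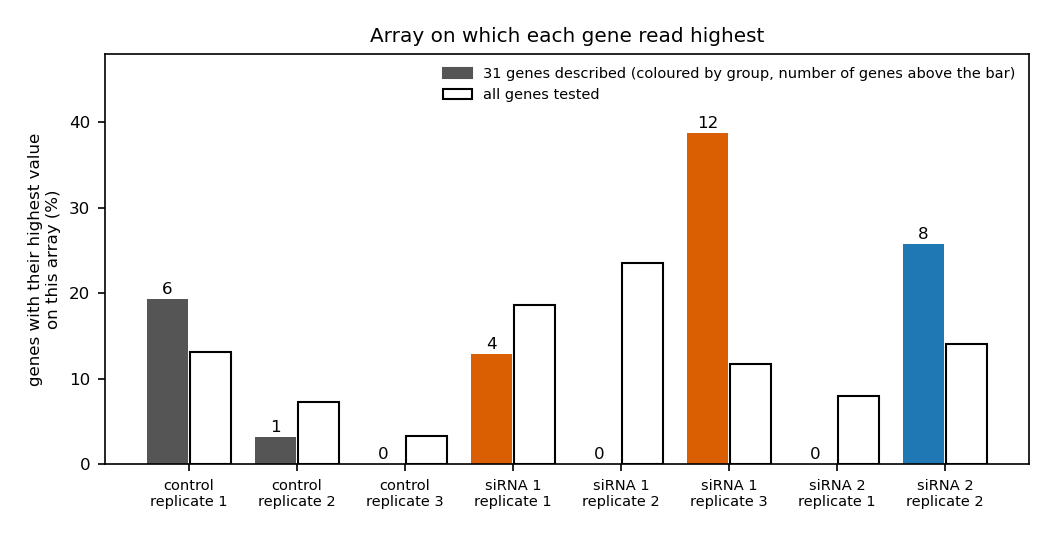
Percent of genes whose highest value fell on each array, for the 31 genes described (filled bars, with the number of genes above) and for all 19935 genes tested (open bars). The filled bar is tallest for siRNA 1 replicate 3, with 12 genes, and 3 arrays hold none.

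Other genes of these pathways were described by lists. Genes named singly from these lists were picked by their low p in limma for the average of both siRNAs. They are extremes of their lists, and the counts and medians describe each list as a whole. Of 25 folate and methionine cycle genes measured, 8 were higher and 17 lower for the average of both siRNAs, where 56.1% of all genes were higher. Their median was -0.027, and limma passed 0. Mthfd2l, a mitochondrial relative of Mthfd2, differed by -0.19 (SE 0.07), Ggh, which trims the glutamate tail of folates, by -0.14 (SE 0.06), and Slc1a4, a serine and alanine carrier, by -0.15 (SE 0.07). Only Mthfd2l of these 25 had an unadjusted p under 0.05, as had 6.31% of all genes. All 5 of its siRNA arrays but siRNA 1 replicate 1 (9.32) lay below the lowest control (9.28).

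Of 21 kinases and phosphatases of the integrated stress response and further ATF4 targets, 7 were higher and 14 lower. Over all genes 56.1% were higher. The median of the list was -0.032, beside 0.011 over all genes. In limma 0 of the list passed. Only Eif2ak4 of the list had an unadjusted p under 0.05, as had 6.31% of all genes. Eif2ak4, which senses uncharged tRNA, differed by -0.12 (SE 0.05), Eif2ak2, which senses double-stranded RNA, by -0.25 (SE 0.12), and Eif2ak3, which senses misfolded protein, by -0.13 (SE 0.07). Eif2ak4 read 9.28, 9.31 and 9.23 in control cells, 9.19, 9.01 and 9.15 with siRNA 1, and 9.19 and 9.18 with siRNA 2, so all 5 siRNA arrays lay below the controls. Its adjusted p of 0.769 in limma did not pass, and 2.25% of all genes were lower without overlap. Of 11 aminoacyl-tRNA synthetases, which charge tRNAs with amino acids and many of which ATF4 induces, 2 were higher and 9 lower. Their median was -0.044, and 0 passed in limma or had an unadjusted p under 0.05. Beside them, 56.1% of all genes were higher and 6.31% had such a p. Nars differed by -0.09 (SE 0.05), Lars by -0.08 (SE 0.05) and Tars by -0.05 (SE 0.05).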

How the data were processed

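Total RNA was hybridised to Affymetrix arrays, 1 per sample. The deposited values are log2 summaries of probe sets, for which the submitters' processing notes name RMA. No version or array library is stated in the labels. RMA sets arrays to a common distribution, which removes any shift common to most transcripts. Of 28815 probe sets 21780 had a single gene symbol in the platform annotation, and the brightest per gene gave 19935 genes. No 2 arrays were identical. Groups and replicate numbers came from the titles.

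Limma (version 3.58.1, R 4.3.3) was run on all 8 arrays with 1 mean for each group (lmFit, eBayes), with two-sided p-values adjusted by Benjamini-Hochberg over all genes in each of 4 comparisons and a threshold of 0.05. Intervals are 95%. The fit was tested on simulated data. The genes, lists and the rule for values on every array (an unadjusted p under 0.05 in any comparison, the smallest p of a role group, and fixed names) were chosen with earlier results of these data known. Role groups and pathway lists are by textbook function. The alternatives were repeated quantile normalization, median centring, a filter at the median gene, trend and robust moderation, array weights, averaging the probe sets of a gene, a replicate block, fits to only the groups compared, and each array left out in turn. A covariate of the array lower quartile and leaving out siRNA 1 replicates 1 and 2 together were added after seeing the data. The number of arrays limits the precision. Figures used matplotlib 3.10.9.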

Additional observations from a re-analysis of the deposited data

Results flagged for a closer look

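In 4 of the 31 genes every siRNA 1 array lay on one side of the control mean and every siRNA 2 array on the other, which is 12.9% of the list beside 3.06% of all genes. Some margins were narrow. Sesn2 on siRNA 2 replicate 1 lay 0.003 above the control mean, and Slc7a3 on siRNA 1 replicate 1 lay 0.012 below it. Both siRNAs are set against the same controls. The siRNA 2 minus siRNA 1 difference on the log2 scale was -0.23 for Nupr1 (SE 0.06), -0.18 for Ddit3 (SE 0.06), 0.12 for Sesn2 (SE 0.06) and 0.10 for Slc7a3 (SE 0.05). Limma's test of that difference gave an adjusted p of 1 for each, so none passed. Groups of 3 or fewer arrays were not searched for single outlying arrays.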

How the results depend on the processing

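Under all 18 alternatives 0 of the 31 genes passed, with a lowest adjusted p in limma of 0.0606, for Gcat with siRNA 1 against control. Over all genes, array weights passed 14 for the average and 1436 for siRNA 1, trend and robust moderation passed 3 between the siRNAs, and the other fits passed 0. Of 1136 differences of 16 genes, 1095 kept their direction and 41 turned. With median centring the list's median was -0.004 for the average and -0.005 for siRNA 1, and with quantile normalization 0.004 for siRNA 2. The median over the list for siRNA 1 (0.017) was 0.062 with array weights and 0.060 without siRNA 1 replicates 1 and 2. Single turned values, none passing and the cause not tested, were these. For the average, Phgdh was 0.026 with array weights and 0.030 without siRNA 1 replicates 1 and 2, Ddit3 -0.004 with array weights, Gcat -0.005 with median centring and 0.000 with the lower quartile, and Shmt2 0.029 with the lower quartile. For siRNA 1, Phgdh was 0.198 with array weights, 0.232 without replicates 1 and 2 and 0.017 with quantile normalization, Cth 0.002 with quantile normalization and 0.007 with the lower quartile, Atf4 -0.010 with centring and Shmt2 0.012 with the lower quartile. Between the siRNAs, Asns was 0.004 with centring, and Tyms 0.007 and Atf4 0.000 without siRNA 1 replicates 1 and 2. Leaving out each array in turn gave ranges that crossed 0. For the average they were -0.045 to 0.057 for Gcat, -0.013 to 0.055 for Ddit3, -0.069 to 0.037 for Shmt2 and -0.030 to 0.058 for Atf4. For siRNA 1 they were -0.123 to 0.062 for Phgdh, -0.038 to 0.007 for Cth, -0.002 to 0.027 for Atf4 and -0.052 to 0.002 for Psph. For siRNA 2 they were -0.100 to 0.111 for Shmt2, -0.192 to 0.013 for Gcat and -0.072 to 0.104 for Atf4, and between the siRNAs -0.083 to 0.092 for Atf4, -0.063 to 0.148 for Shmt2 and -0.102 to 0.042 for Mthfd2. For the average, only the groups compared is the same fit and the filter removed Slc7a11 and Aldh1l2. Same-numbered arrays had deviations that correlated from -0.55 to 0.22, and differently numbered arrays of different groups from -0.22 to 0.55. Deviations are from group means, so those of the 2 siRNA 2 arrays mirror each other, and these values cannot decide on pairing. The numbers were not taken as pairs. With the replicate block the list's median for the average was 0.017 in place of 0.007 and 0 genes passed. The core was in 4 member promoters when only the 250 bases before the start were searched.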
